A study of Arabidopsis thaliana with 4 samples.

Results

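SAUR genes (SMALL AUXIN UP RNA) were followed through 6 shoot libraries of 7-day-old Arabidopsis thaliana seedlings. The 46 loci described here were chosen by their locus numbers from the 33558 loci of the deposited table and all 46 were found there. These loci were chosen with earlier results of these data known. They lie in 6 genomic clusters of neighbouring genes and at 14 dispersed positions. Among the 80 loci that the reference names SAUR or that belong to the 46, 32 other SAUR genes were in the table and serve for comparison.

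Both genotypes were sampled in both lights. The libraries labelled hfr1 pil1 carry the alleles hfr1-4 and pil1-2 of HFR1 and PIL1, which code for basic helix-loop-helix proteins known from shade signalling. Col-0 is the wild-type accession they are set against. All seedlings started on agar without sucrose at 22 °C under constant white light (30 to 50 µE, given per square metre and second) whose red to far-red ratio (R:FR) was 1.2. After 3 d in that light, one set spent 96 h in low R:FR, the light signal of neighbouring plants, made up of 13 µE of red, 1.23 µE of blue and 20 µE of far-red light, while the other set stayed in white light for all 7 d. The amount of light therefore changed together with R:FR, and the share of blue may have changed too. The effects of amount, blue share and ratio cannot be told apart here.

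SAUR genes code for short proteins, mostly from a single exon, and many are among the earliest transcripts induced by auxin. Proteins of the SAUR19 kind bind and inhibit PP2C-D phosphatases, which keeps plasma membrane proton pumps (H+-ATPases) phosphorylated and active, acidifies the cell wall and lets cells expand. Shade makes hypocotyls and petioles elongate, partly through auxin made in the cotyledons. Other SAUR genes are known as light-induced genes of the cotyledons, or respond to other hormones, so the family does not act as 1 unit.

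The deposited values are normalized counts, that is reads per gene divided by 1 size factor per library. The columns labelled hfr1 pil1 each held 1 library, and those of Col-0 are means made by the authors, whose values resolved into whole reads of 2 libraries. The 6 libraries held 7358583 to 14684713 reads in the genes that could be resolved. A gene was compared if it averaged at least 10.8 normalized counts over the 4 columns, and 40 of the 46 SAUR genes did. "Rose" and "fell" are kept for genes with a Benjamini-Hochberg adjusted p under 0.05 in edgeR's quasi-likelihood test over 20060 genes, and a log2 value followed by ± is the fitted log2 fold change with its approximate standard error (SE). The test takes the spread of Col-0 as that of hfr1 pil1, which has 1 library per light. Nothing says whether the paired Col-0 libraries came from separate plants, so the spread behind the p-values may be technical. In whole shoots, fewer cells of a type and less RNA per cell cannot be told apart.

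The mutated genes themselves, HFR1 and PIL1, showed no loss of transcript under the label hfr1 pil1. HFR1 stood at 2112 normalized counts in hfr1 pil1 in low R:FR and 2203 in Col-0 in low R:FR, and at 189 in hfr1 pil1 in white light and 27.9 in Col-0 in white light. For PIL1 the values were 1574 in hfr1 pil1 and 277 in Col-0 in low R:FR, and 220 in hfr1 pil1 and 16.5 in Col-0 in white light. The transcript level therefore does not check the genotype labels, and hfr1 pil1 stands below for what the labels call so. Transcripts of 8 root markers were also present in these samples labelled shoot. Their summed level was 36157 normalized counts in hfr1 pil1 in low R:FR against 25572 in hfr1 pil1 in white light, and 34680 in Col-0 in low R:FR against 30674 in Col-0 in white light. Most of that was PYK10, and no marker was at 0 in any column. Of the 7 root markers tested, 3 rose and 0 fell in hfr1 pil1, and 1 rose and 1 fell in Col-0, with the endodermal gene CASP1 rising in both genotypes. The part of root tissue in the SAUR results was not tested. The summed level of 8 shoot markers was 146445 in hfr1 pil1 in low R:FR against 229338 in hfr1 pil1 in white light, and 190019 in Col-0 in low R:FR against 233622 in Col-0 in white light. RBCS1A alone stood at 60418 in hfr1 pil1 in low R:FR against 144060 in white light. In Col-0 it stood at 63407 in low R:FR against 136384 in white light. LHCA1 went the other way, at 23973 against 17463 in hfr1 pil1 and 31344 against 22125 in Col-0. Of the 5 shoot markers tested, 0 rose and 2 fell in hfr1 pil1, and 2 rose and 1 fell in Col-0.

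Most of the SAUR genes that could be tested were higher in low R:FR than in white light. In hfr1 pil1, 22 of the 40 rose and 2 fell, where 18.4% of all tested genes rose and 18.6% fell. In Col-0, 28 of the 40 rose and 4 fell, where 23.0% of all tested genes rose and 25.3% fell. Since the loci were chosen with earlier results of these data known, their excess over all genes is a description and not a test. The median log2 fold change of the 40 genes was 1.46 in hfr1 pil1 and 1.72 in Col-0, beside −0.01 in hfr1 pil1 and −0.02 in Col-0 over all tested genes. In hfr1 pil1, 20 genes rose at least 2-fold, as did 7.67% of all tested genes, and in Col-0, 25 did, as did 6.28% of all. By the ratio of deposited values alone, after adding 10.8 normalized counts to each, 20 were at least 2-fold higher in hfr1 pil1, where 6.48% of all genes over the filter were, and 21 in Col-0, where 4.79% were. In Col-0, 32 of the 40 genes had both low R:FR libraries above both white light libraries and 5 had both below, where 35.6% and 39.0% of all tested genes did so.

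The genes that rose were largely shared between the genotypes. All 22 genes that rose in hfr1 pil1 were among the 28 that rose in Col-0. The other 6 of those 28 (SAUR50, SAUR3, SAUR4, SAUR15, SAUR12 and SAUR71) had positive values in hfr1 pil1 without being called. SAUR14 and SAUR31 fell in both genotypes, SAUR41 and SAUR8 had negative values in hfr1 pil1 without being called and fell in Col-0, and no gene was called in opposite directions. The comparisons of light in the 2 genotypes share no library. Pearson's r between them over the 40 genes was 0.917, beside 0.821 over all tested genes. This is a description across genes, which are not independent replicates.

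**Figure D1:**
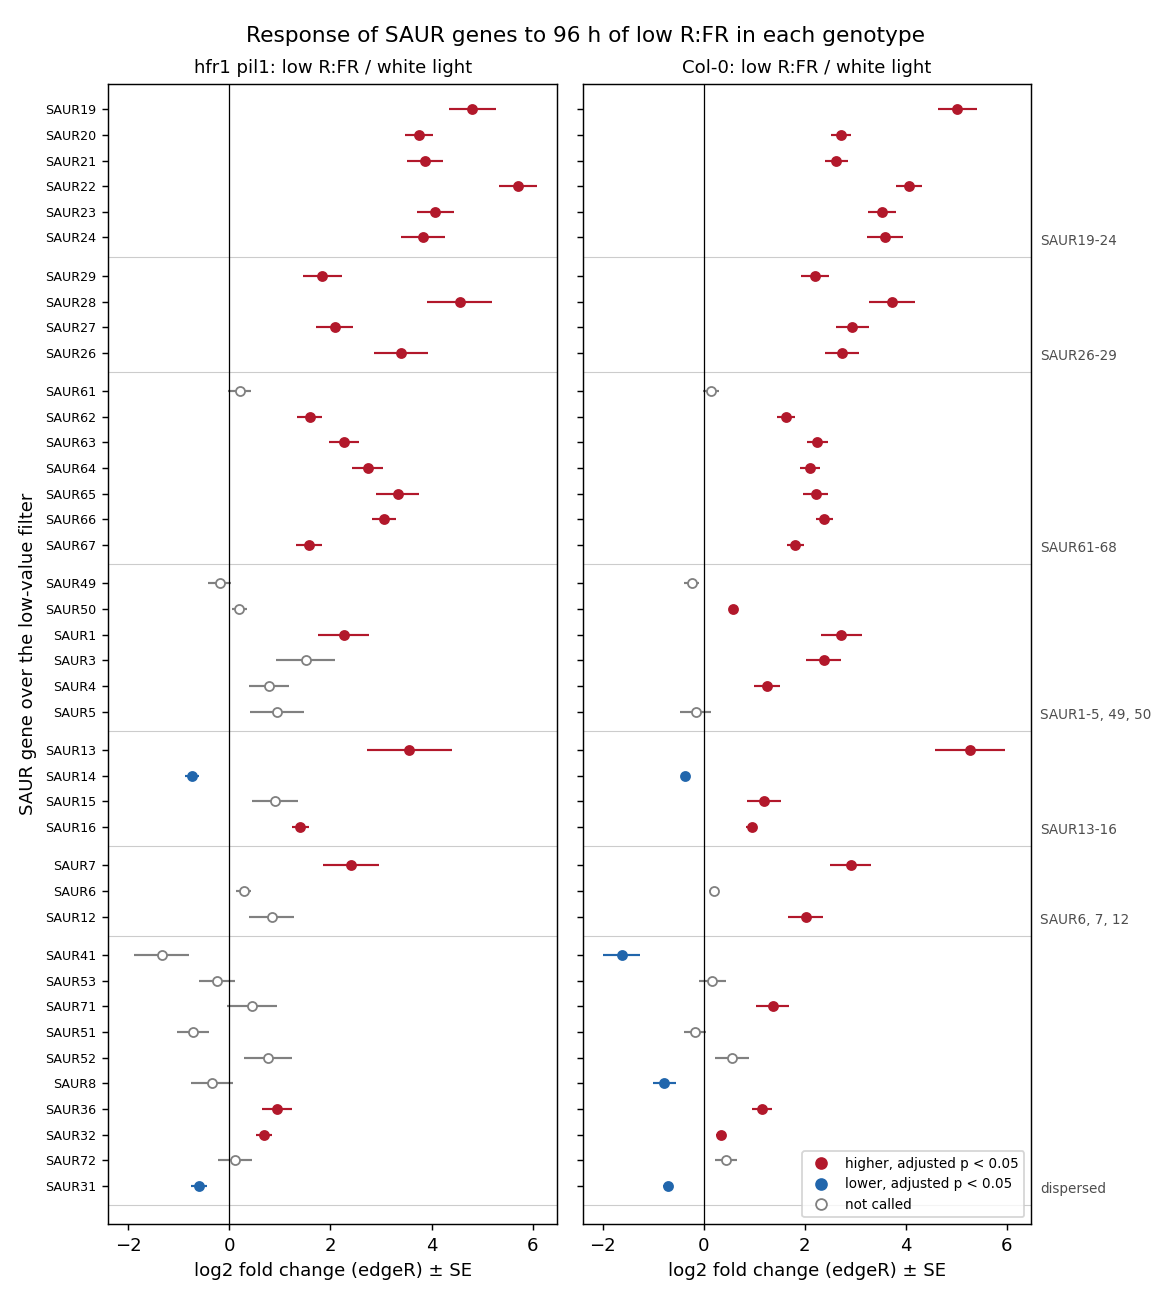
Response of the 40 tested SAUR genes, as edgeR's log2 fold change of low R:FR over white light (points) and its SE (bars), in hfr1 pil1 on the left and Col-0 on the right, grouped by genomic cluster. Filled red points rose, filled blue points fell and open points were not called; the clusters of SAUR19 to SAUR24 and SAUR26 to SAUR29 lie wholly to the right of 0 in both genotypes, while the dispersed genes lie on both sides.

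Summed over their genes, the genomic clusters had ratios of very different size. The 6 genes from SAUR19 to SAUR24 together held 1049 normalized counts in hfr1 pil1 in low R:FR against 55.5 in white light, an 18.9-fold ratio, and 704 in Col-0 in low R:FR against 72.3 in white light, a 9.74-fold ratio. Between single Col-0 libraries the log2 ratio of that sum ran from 3.00 to 3.56. For the 4 genes from SAUR26 to SAUR29 the ratios were 5.28 in hfr1 pil1 and 6.40 in Col-0, and for the 8 genes from SAUR61 to SAUR68 they were 3.80 and 3.34. The remaining clusters moved far less in sum. The cluster of SAUR1 to SAUR5 with SAUR49 and SAUR50 had ratios of 1.27 in hfr1 pil1 and 1.48 in Col-0, that of SAUR13 to SAUR16 had 1.35 and 1.28, and that of SAUR6, SAUR7 and SAUR12 had 1.32 and 1.31. The 14 dispersed genes stood at 769 in hfr1 pil1 in low R:FR against 715 in white light, and at 727 in Col-0 in low R:FR against 726 in white light.

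The make-up of the SAUR transcripts shifted accordingly. All 46 genes together held 4727 normalized counts in hfr1 pil1 in low R:FR against 2359 in white light, and 4212 in Col-0 in low R:FR against 2371 in white light. The 6 genes from SAUR19 to SAUR24 made up 22.2% of that sum in hfr1 pil1 and 16.7% in Col-0 in low R:FR, against 2.35% in hfr1 pil1 and 3.05% in Col-0 in white light. The dispersed genes made up 16.3% in hfr1 pil1 and 17.3% in Col-0 in low R:FR, against 30.3% in hfr1 pil1 and 30.6% in Col-0 in white light. No p is given for these sums, since the genes of a cluster are not replicates.

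**Figure D2:**
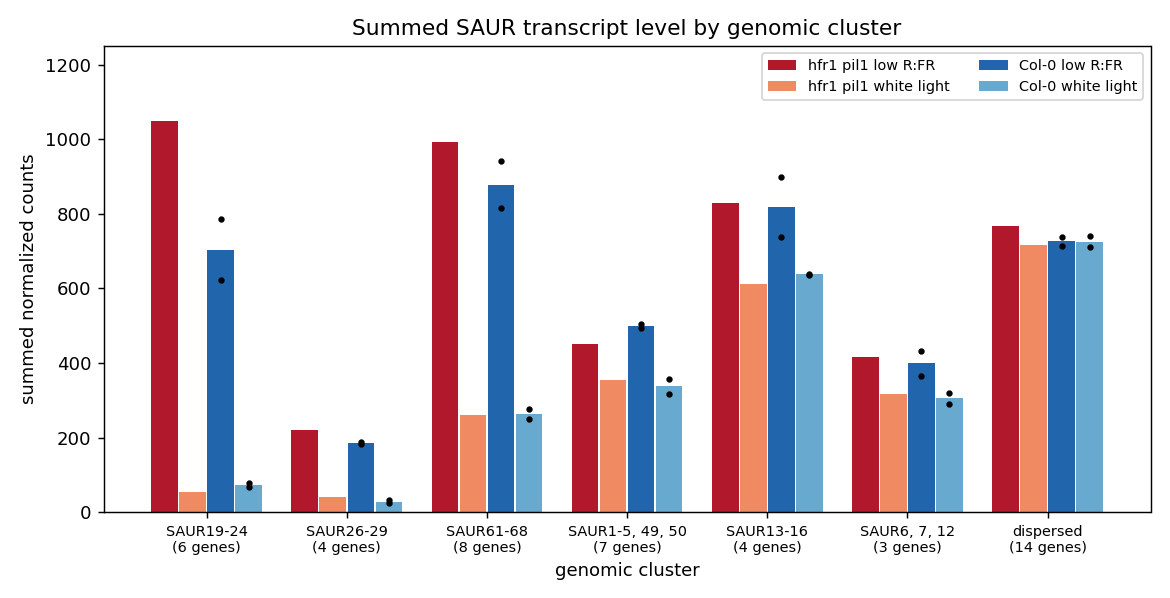
Summed normalized counts of the genes in each genomic cluster (vertical axis, from 0) in the 4 deposited columns, hfr1 pil1 in red shades and Col-0 in blue shades, with dots for the single Col-0 libraries. The bars of SAUR19 to SAUR24 differ most between the lights (1049 against 55.5 in hfr1 pil1, 704 against 72.3 in Col-0) and those of the dispersed genes least.

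Many of the start regions of these genes hold a sequence feature that the choice of loci did not use. The 300 bases before each annotated start were read from the RefSeq genome (build TAIR10.1) and searched on both strands for CACATG, which is bound by phytochrome-interacting factors, for CACGTG, the G-box, and for the auxin response elements TGTCTC and TGTCGG. The 4 motifs differ in letters, so no stretch counts as a match to more than 1 of them. CACATG was present before 28 of the 46 genes (60.9%), against 3583 of 27443 protein-coding genes (13.1%). It stood before all 4 genes from SAUR26 to SAUR29, all 8 from SAUR61 to SAUR68, 3 of 6 from SAUR19 to SAUR24, 3 of 4 from SAUR13 to SAUR16, 4 of 7 in the cluster of SAUR1, 1 of 3 in that of SAUR6, and 5 of the 14 dispersed genes. Neighbouring copies share promoter sequence, so these are not independent matches. TGTCTC was found before 7 genes (15.2%, against 13.0% of all), TGTCGG before 2 (4.35%, against 4.91%) and CACGTG before none, against 7.09% of all.

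Genes that rose were found both with and without CACATG. In hfr1 pil1, 15 of the 24 tested genes with CACATG rose and 1 fell, and 7 of the 16 without it rose and 1 fell. In Col-0, 18 of the 24 with CACATG rose and 2 fell, and 10 of the 16 without it rose and 2 fell. The 7 genes with TGTCTC (SAUR7, SAUR15, SAUR20, SAUR22, SAUR62, SAUR66 and SAUR67) were all among the 28 of 40 that rose in Col-0. All but SAUR15 were among the 22 of 40 that rose in hfr1 pil1. The window of SAUR7 lies wholly inside the annotated SAUR6 gene, on the same strand. Other windows, apart from the 4 printed below, were not searched for overlapping genes. How often all tested genes with either motif rose was not computed, and a link between motif and response was not tested. The 4 windows below are shown because they set a strongly induced pair, SAUR19 and SAUR22, beside neighbours from a single cluster that moved in opposite directions, SAUR16 (rose) and SAUR14 (fell). Each runs 5′ to 3′ on the gene's own strand and ends 1 base before the start, with motif matches in capitals (CACATG, or CATGTG where it lies on the other strand, and GAGACA for TGTCTC on the other strand). SAUR19 lies on the minus strand (window chr5:5963406-5963705, which overlaps the gene AT5G02835), SAUR22 on the minus strand (chr5:5975088-5975387), SAUR16 on the plus strand (chr4:18129937-18130236) and SAUR14 on the minus strand (chr4:18125560-18125859).
SAUR19: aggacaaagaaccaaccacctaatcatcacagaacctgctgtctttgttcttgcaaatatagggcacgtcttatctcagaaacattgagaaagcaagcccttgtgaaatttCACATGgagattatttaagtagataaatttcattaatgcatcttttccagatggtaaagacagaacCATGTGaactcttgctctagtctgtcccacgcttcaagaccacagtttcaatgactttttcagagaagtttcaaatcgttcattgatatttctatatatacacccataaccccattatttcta
SAUR22: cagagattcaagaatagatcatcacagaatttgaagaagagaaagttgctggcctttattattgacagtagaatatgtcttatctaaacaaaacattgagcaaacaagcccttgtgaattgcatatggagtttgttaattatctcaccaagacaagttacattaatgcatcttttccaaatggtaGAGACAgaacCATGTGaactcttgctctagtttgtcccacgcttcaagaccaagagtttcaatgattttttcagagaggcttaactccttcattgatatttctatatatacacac
SAUR16: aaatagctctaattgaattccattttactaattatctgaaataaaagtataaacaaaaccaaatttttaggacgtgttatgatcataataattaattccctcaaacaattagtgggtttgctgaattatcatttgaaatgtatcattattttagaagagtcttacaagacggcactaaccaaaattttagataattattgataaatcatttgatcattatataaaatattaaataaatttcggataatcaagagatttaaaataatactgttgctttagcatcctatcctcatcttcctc
SAUR14: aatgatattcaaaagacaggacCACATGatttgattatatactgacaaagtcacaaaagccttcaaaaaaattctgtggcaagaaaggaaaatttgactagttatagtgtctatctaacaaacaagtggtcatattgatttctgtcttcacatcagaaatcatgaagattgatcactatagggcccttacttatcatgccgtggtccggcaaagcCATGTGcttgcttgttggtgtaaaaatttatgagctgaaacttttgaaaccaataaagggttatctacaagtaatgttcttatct
SAUR19 and SAUR22 each hold a CATGTG, at 123 and 105 bases before the start, within a run of 30 letters that both windows share, agacagaacCATGTGaactcttgctctagt. SAUR16, which rose, has no match in its window, and SAUR14, which fell, has 2. These letters say nothing of which proteins bind there.

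The cluster of SAUR19 to SAUR24 on chromosome 5 (start of SAUR19 at 5962773, end of SAUR24 at 5984308) changed most. SAUR19 is the member whose overexpression is best known to enlarge cells and to raise proton pump activity. All 6 genes rose in both genotypes, with a median log2 fold change of 3.97 in hfr1 pil1 and 3.56 in Col-0. SAUR22 (AT5G18050) stood at 246 normalized counts in hfr1 pil1 in low R:FR against 4.62 in white light. In Col-0 it stood at 137 and 157 in low R:FR, against 5.56 and 13.2 in white light. Every low R:FR library lay far above every white light library, with log2 fold changes of 5.70 ± 0.38 in hfr1 pil1 and 4.07 ± 0.26 in Col-0 (adjusted p = 2.04e-07 and 4.79e-08, edgeR). The Col-0 value was 3.46 without the first white light library and 4.69 without the second.

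SAUR19 (AT5G18010) had 111 normalized counts in hfr1 pil1 in low R:FR against 3.85 in white light, and 79.8 and 82.3 in Col-0 in low R:FR against 0.794 and 4.79 in white light. Its log2 fold changes, 4.81 ± 0.46 in hfr1 pil1 and 5.02 ± 0.38 in Col-0, are loosely fixed in Col-0, where the white light values rest on 1 and 4 reads and the fold change was 4.05 without the first white light library and 6.50 without the second. SAUR20 (AT5G18020) and SAUR21 (AT5G18030) started from a higher white light level and changed less in Col-0. SAUR20 had 209 in hfr1 pil1 in low R:FR against 15.4 in white light, and 126 and 146 in Col-0 in low R:FR against 23.0 and 16.8 in white light. SAUR21 had 203 in hfr1 pil1 in low R:FR against 13.9 in white light, and 123 and 176 in Col-0 in low R:FR against 23.0 and 25.2 in white light. Their log2 fold changes in hfr1 pil1 were 3.75 ± 0.28 for SAUR20 and 3.86 ± 0.35 for SAUR21, and in Col-0 2.72 ± 0.20 for SAUR20 and 2.62 ± 0.23 for SAUR21. SAUR23 and SAUR24 lay between, at 3.53 ± 0.27 and 3.59 ± 0.35 in Col-0. The 6 coding sequences are 87.7% to 95.2% identical, SAUR19 and SAUR24 the most alike. Of the 50-base stretches of SAUR19, 18.5% occur elsewhere in the genome, of SAUR24 7.11% and of SAUR22 0.573%. The sources used here give neither the read length nor the handling of reads with several matches, so the split between copies is uncertain, SAUR19 most of all and SAUR22 least.

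The cluster of SAUR26 to SAUR29 on chromosome 3 (976715 to 983768) belongs to a subfamily known for growth in warmth, and all 4 genes rose in both genotypes. SAUR29 (AT3G03820), the most abundant, had 77.4 normalized counts in hfr1 pil1 in low R:FR against 21.6 in white light, and 75.5 and 77.6 in Col-0 in low R:FR against 22.2 and 8.39 in white light. Its log2 fold change in Col-0 was 2.19 with both white light libraries and 3.17 without the first. SAUR27 (AT3G03840) had 62.2 in hfr1 pil1 in low R:FR against 14.6 in white light, and 40.5 and 41.5 in Col-0 in low R:FR against 5.56 and 4.79 in white light. The low R:FR libraries were again all above the white light libraries, and the Col-0 low R:FR pairs nearly coincided. SAUR28 (AT3G03830) was the least abundant, at 38.7 in hfr1 pil1 in low R:FR against 1.54 in white light, and 25.8 and 27.4 in Col-0 in low R:FR against 1.59 and 2.40 in white light. It had the largest log2 fold changes of the cluster, 4.56 ± 0.64 in hfr1 pil1 and 3.72 ± 0.46 in Col-0. SAUR26 (AT3G03850) had 41.5 in hfr1 pil1 in low R:FR against 3.85 in white light, and 42.4 and 41.5 in Col-0 in low R:FR against 4.77 and 8.39 in white light. The coding sequences are 77.7% to 86.3% identical.

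The cluster of SAUR61 to SAUR68 on chromosome 1 (10301377 to 10323239) holds SAUR63, whose overexpression is known to lengthen hypocotyls and stamen filaments. Of its 8 genes 7 were tested, and 6 of them rose in both genotypes. SAUR66 (AT1G29500), the most abundant, had 218 normalized counts in hfr1 pil1 in low R:FR against 26.2 in white light, and 161 and 186 in Col-0 in low R:FR against 31.8 and 34.8 in white light (3.05 ± 0.24 in hfr1 pil1 and 2.39 ± 0.16 in Col-0). SAUR63 (AT1G29440) had 178 in hfr1 pil1 in low R:FR against 37.0 in white light, and 163 and 181 in Col-0 in low R:FR against 26.2 and 50.3 in white light. Its log2 fold changes were 2.27 ± 0.30 in hfr1 pil1 and 2.25 ± 0.20 in Col-0. Among the others that rose (SAUR62, SAUR64, SAUR65 and SAUR67) they ranged from 1.58 to 3.33 in hfr1 pil1 and from 1.62 to 2.21 in Col-0.

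SAUR61 (AT1G29420), at the end of that cluster, stood apart. It had 91.2 normalized counts in hfr1 pil1 in low R:FR against 79.3 in white light, and 74.9 and 84.6 in Col-0 in low R:FR against 75.5 and 67.1 in white light. The low R:FR and white light libraries of Col-0 overlapped, and the log2 fold changes were 0.20 ± 0.24 in hfr1 pil1 and 0.14 ± 0.16 in Col-0, not called in either (adjusted p = 0.541 and 0.495, edgeR). The annotation places another gene over SAUR61 on the opposite strand, as for SAUR63 and SAUR64. Outside this cluster the same holds for SAUR7, SAUR8, SAUR13 and SAUR31. The sources used here do not say whether reads were counted by strand, so values of these genes may include reads of the overlapping gene. SAUR68 (AT1G29490) was below the filter, with 13 reads in hfr1 pil1 in low R:FR against 1 in white light, and 11 and 12 reads in Col-0 in low R:FR against 0 and 0 in white light. Against a floor of 3 reads over the group, that is at least 5.52-fold higher in Col-0 in low R:FR. Of the 50-base stretches of SAUR67, 33.9% occur elsewhere in the genome, 27.1% of those of SAUR63 and 23.2% of those of SAUR62. Values of these genes may therefore include reads of other copies. Which loci hold the shared stretches was not recorded, and for the dispersed SAUR75 on chromosome 5 the share was 30.0%. SAUR67 here is AT1G29510, which the reference lists as SAUR68, a name it also gives to AT1G29490.

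**Figure D3:**
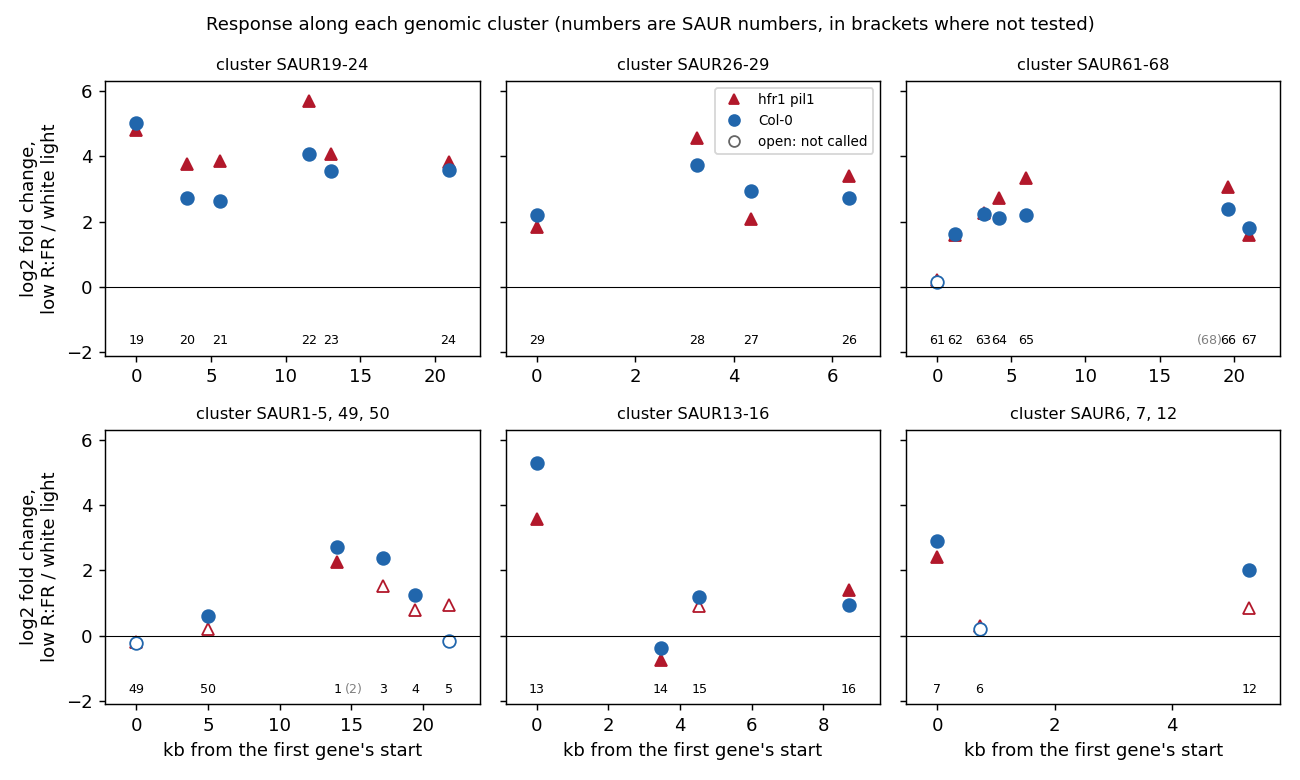
Fitted log2 fold change of low R:FR over white light (vertical axis) against the distance of each gene from the first gene's start in kb (horizontal axis), 1 panel per cluster, with triangles for hfr1 pil1, circles for Col-0, open symbols for values not called and SAUR numbers at the foot. The panels of SAUR19 to SAUR24 and SAUR26 to SAUR29 hold only filled symbols above 0, while the other panels each hold a gene near or below 0, such as SAUR61, SAUR49, SAUR14 and SAUR6.

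The cluster of SAUR49, SAUR50 and SAUR1 to SAUR5 on chromosome 4 (16577180 to 16599568) was mixed. Of its 6 tested genes, SAUR1 alone rose in hfr1 pil1, and 4 rose in Col-0 (SAUR50, SAUR1, SAUR3 and SAUR4). SAUR50 (AT4G34760), known as a light-induced gene of cotyledons, was the most abundant and differed little. It had 238 normalized counts in hfr1 pil1 in low R:FR against 207 in white light, and 290 and 295 in Col-0 in low R:FR against 189 and 201 in white light, with log2 fold changes of 0.20 ± 0.14 in hfr1 pil1 and 0.59 ± 0.09 in Col-0 (adjusted p = 0.305 and 1.59e-04, edgeR). Its neighbour SAUR49 (AT4G34750) had 87.1 in hfr1 pil1 in low R:FR against 99.4 in white light, and 78.6 and 76.8 in Col-0 in low R:FR against 84.2 and 102 in white light, lower in low R:FR but not called in either genotype.

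Further along the same cluster the genes were less abundant and changed more. SAUR1 (AT4G34770) had 48.4 normalized counts in hfr1 pil1 in low R:FR against 10.01 in white light, and 33.8 and 37.6 in Col-0 in low R:FR against 2.38 and 9.59 in white light (2.26 ± 0.50 in hfr1 pil1 and 2.73 ± 0.41 in Col-0). SAUR3 (AT4G34790) had 22.1 in hfr1 pil1 in low R:FR against 7.70 in white light, and 43.6 and 30.6 in Col-0 in low R:FR against 7.15 and 7.19 in white light. Both genes were higher in every low R:FR library. The Col-0 fold change of SAUR1 was 1.88 without the first white light library and 3.84 without the second. With DESeq2 the hfr1 pil1 call of SAUR1 is lost. SAUR3 missed the threshold in hfr1 pil1 (1.51 ± 0.58, adjusted p = 0.059, edgeR) and rose in Col-0 (2.38 ± 0.35). SAUR5 (AT4G34810), the last of the row, had 20.7 in hfr1 pil1 in low R:FR against 10.8 in white light, and 20.3 and 14.1 in Col-0 in low R:FR against 19.1 and 20.4 in white light, and was not called. SAUR2 had 0 reads in every library.

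The cluster of SAUR13 to SAUR16 on chromosome 4 (18121526 to 18131284) held genes that moved in opposite directions. SAUR16 (AT4G38860), a light-induced gene of cotyledons like SAUR50, was the most abundant of the 46 genes by mean level. It had 542 normalized counts in hfr1 pil1 in low R:FR against 205 in white light, and 417 and 527 in Col-0 in low R:FR against 237 and 252 in white light. It rose in both genotypes (1.40 ± 0.17 in hfr1 pil1 and 0.95 ± 0.11 in Col-0). SAUR14 (AT4G38840), of the same cluster, fell in both. It had 234 in hfr1 pil1 in low R:FR against 388 in white light, and 281 and 311 in Col-0 in low R:FR against 385 and 378 in white light (−0.73 ± 0.14 in hfr1 pil1 and −0.37 ± 0.09 in Col-0, adjusted p = 0.00103 and 0.00322, edgeR). Its low R:FR libraries all lay below its white light libraries, as those of SAUR16 all lay above. With DESeq2 the Col-0 call of SAUR14 is lost.

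SAUR13 (AT4G38825) and SAUR15 (AT4G38850) of the same cluster were far less abundant. SAUR13 had 19.4 normalized counts in hfr1 pil1 in low R:FR against 1.54 in white light, and 19.0 and 26.6 in Col-0 in low R:FR against 0.794 and 0 in white light. The fitted value in hfr1 pil1 was 3.56 ± 0.85, a call lost with DESeq2. In Col-0 it was 5.27 ± 0.69, the highest of the 40, but 1 of the 2 white light libraries had no read, and the fold change was 7.70 without the first of them and 4.65 without the second. SAUR15, long known as SAUR-AC1 from work on auxin-induced transcripts, had 33.2 in hfr1 pil1 in low R:FR against 17.7 in white light, and 22.7 and 32.9 in Col-0 in low R:FR against 13.5 and 9.59 in white light. It was not called in hfr1 pil1 (0.90 ± 0.45, adjusted p = 0.139, edgeR) and rose in Col-0 (1.19 ± 0.33), and the Col-0 call is lost with DESeq2 and without the second Col-0 low R:FR library.

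In the small cluster of SAUR7, SAUR6 and SAUR12 on chromosome 2 (9083906 to 9090052) the abundant gene was not called in either genotype. SAUR6 (AT2G21210) had 362 normalized counts in hfr1 pil1 in low R:FR against 297 in white light, and 315 and 374 in Col-0 in low R:FR against 311 and 279 in white light, and was not called (0.28 ± 0.15 in hfr1 pil1 and 0.21 ± 0.10 in Col-0, adjusted p = 0.166 and 0.115, edgeR). SAUR7 (AT2G21200) had 29.0 in hfr1 pil1 in low R:FR against 5.39 in white light, and 25.8 and 33.7 in Col-0 in low R:FR against 3.97 and 3.60 in white light. It rose in both genotypes (2.41 ± 0.56 in hfr1 pil1, a call lost with DESeq2, and 2.91 ± 0.40 in Col-0). The annotated ends of SAUR7 and SAUR6 overlap on 1 strand, so some reads could belong to either. SAUR12 (AT2G21220) had 26.3 in hfr1 pil1 in low R:FR against 14.6 in white light, and 25.8 and 25.1 in Col-0 in low R:FR against 5.56 and 7.19 in white light. It was not called in hfr1 pil1 (0.84 ± 0.45, adjusted p = 0.163, edgeR) and rose in Col-0 (2.02 ± 0.35).

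The dispersed genes were called in both directions. Of the 10 that were tested, 2 rose and 1 fell in hfr1 pil1, where 18.4% of all tested genes rose and 18.6% fell. In Col-0, 3 rose and 3 fell, where 23.0% of all rose and 25.3% fell. These shares lie near those of all genes. The median log2 fold changes were −0.07 in hfr1 pil1 and 0.25 in Col-0. SAUR36 (AT2G45210), a gene linked to leaf senescence, had 77.4 normalized counts in hfr1 pil1 in low R:FR against 40.0 in white light, and 69.4 and 72.9 in Col-0 in low R:FR against 36.5 and 25.2 in white light. SAUR32 (AT2G46690) had 305 in hfr1 pil1 in low R:FR against 190 in white light, and 258 and 282 in Col-0 in low R:FR against 202 and 229 in white light. Both rose in both genotypes, SAUR36 by 0.95 ± 0.30 in hfr1 pil1 and 1.15 ± 0.21 in Col-0, and SAUR32 by 0.68 ± 0.15 and 0.34 ± 0.10. With DESeq2 the calls of both genes in hfr1 pil1 are lost, and the SAUR32 call in Col-0 too. That Col-0 call is also lost when the second low R:FR or the first white light library of Col-0 is left out.

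Of the 4 genes that fell in Col-0, 3 were dispersed ones. SAUR31 (AT4G00880) had 169 normalized counts in hfr1 pil1 in low R:FR against 257 in white light, and 176 and 166 in Col-0 in low R:FR against 265 and 295 in white light (−0.61 ± 0.16 in hfr1 pil1 and −0.70 ± 0.10 in Col-0). SAUR41 (AT1G16510), known for effects on cell expansion and root meristem patterning, had 9.68 in hfr1 pil1 in low R:FR against 24.6 in white light, and 7.98 and 5.48 in Col-0 in low R:FR against 23.8 and 18.0 in white light (−1.62 ± 0.37 in Col-0). SAUR8 (AT2G16580) had 24.9 in hfr1 pil1 in low R:FR against 31.6 in white light, and 31.9 and 23.5 in Col-0 in low R:FR against 46.1 and 51.5 in white light (−0.78 ± 0.23 in Col-0). All 3 genes had every low R:FR library below the white light libraries of the same genotype. SAUR41 and SAUR8 were not called in hfr1 pil1 (adjusted p = 0.0711 and 0.549, edgeR), and with DESeq2 both are lost in Col-0 as well, as is SAUR31 in hfr1 pil1. SAUR8 is also lost in Col-0 without the second low R:FR library.

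SAUR71 (AT1G56150), a relative of SAUR41, had 22.1 normalized counts in hfr1 pil1 in low R:FR against 16.2 in white light, and 25.2 and 32.1 in Col-0 in low R:FR against 12.7 and 8.39 in white light. It was not called in hfr1 pil1 (0.45 ± 0.49) and rose in Col-0 (1.36 ± 0.32, lost with DESeq2). SAUR72, of the same subfamily, had 41.5 in hfr1 pil1 in low R:FR against 38.5 in white light, and 49.7 and 48.6 in Col-0 in low R:FR against 40.5 and 30.0 in white light, and was not called in either genotype, and neither were SAUR51, SAUR52 and SAUR53. The remaining 4 dispersed genes were below the filter. SAUR10 had 12 reads in hfr1 pil1 in low R:FR against 2 in white light, and 15 and 15 reads in Col-0 in low R:FR against 1 and 0 in white light. SAUR25 and SAUR75 had at most 3 reads in any library and none in white light, and SAUR9 had 6 to 14 reads in every library.

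**Figure D4:**
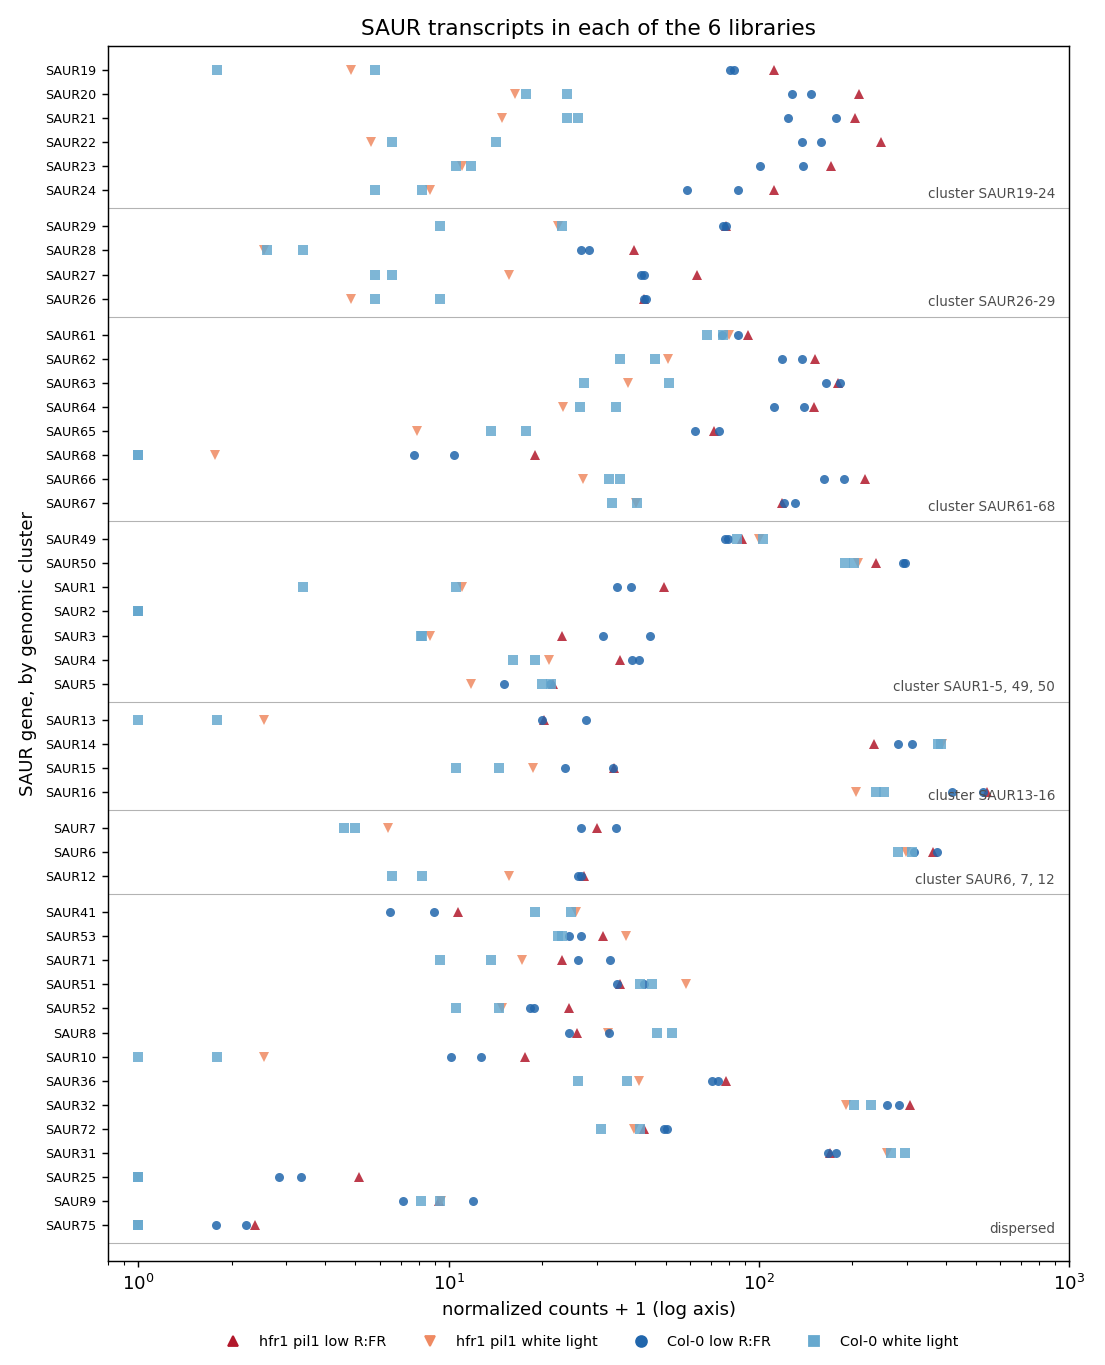
Normalized counts plus 1 (horizontal log axis) of each of the 46 SAUR genes in each of the 6 libraries, ordered by genomic cluster; triangles pointing up are hfr1 pil1 and circles Col-0 in low R:FR, and triangles pointing down are hfr1 pil1 and squares Col-0 in white light. In the rows from SAUR19 to SAUR24 all 3 low R:FR libraries lie far to the right of the 3 white light libraries, and in the rows of SAUR14, SAUR31 and SAUR41 the order is turned round.

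The genes most abundant in white light had small fold changes. Genes were sorted by their level in the hfr1 pil1 white light library and their response was read in Col-0, which shares no library with it. The 6 genes at 100 normalized counts or more (SAUR50, SAUR6, SAUR14, SAUR16, SAUR32 and SAUR31) had log2 fold changes from −0.70 to 0.95 in Col-0, and 3 rose and 2 fell, where 23.0% of all tested genes at that level rose. Of the 15 genes at 20 to 100, 8 rose and 2 fell, with a median of 1.15, where 20.8% of all at that level rose and their median was 0.01. Of the 19 below 20, 17 rose and 0 fell, with a median of 2.72, where 31.4% of all tested genes at that level rose and their median was 0.33. Genes at a low level pass the filter only if they are higher elsewhere, so their shares are a description.

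Per length, the ranks of the genes changed with the light. Over the exons annotated by RefSeq, SAUR20 reached 422 normalized counts per kb in hfr1 pil1 in low R:FR against 31.1 in white light, and 276 in Col-0 in low R:FR against 40.2 in white light. SAUR16 reached 517 per kb in hfr1 pil1 in low R:FR against 195 in white light, and 450 in Col-0 in low R:FR against 233 in white light. SAUR14 stood at 401 per kb in hfr1 pil1 in low R:FR against 667 in white light, and 508 in Col-0 in low R:FR against 655 in white light. SAUR14 thus had the highest level per kb in both genotypes in white light and in Col-0 in low R:FR, while in hfr1 pil1 in low R:FR SAUR16 was above it. SAUR20 was above SAUR14 there too, over an exon length of 495 bases. That length is shorter than the annotated span of SAUR20 (5966183 to 5966785 on chromosome 5), so its rank is uncertain.

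Between the genotypes few differences passed the test. In low R:FR, SAUR22 alone was higher in hfr1 pil1 and no gene was lower, where 0.997% of all tested genes were higher and 1.43% lower. At an unadjusted p under 0.05 in edgeR there were 9 of the 40, beside 2742 of all 20060 tested genes. Of these 9, 5 were among the close copies from SAUR19 to SAUR24. SAUR22 had 246 normalized counts in hfr1 pil1 against 137 and 157 in Col-0 (0.75 ± 0.18, adjusted p = 0.0440, edgeR). That call is lost with DESeq2 and when either Col-0 low R:FR library is left out, and over 10 alternatives the adjusted p ran from 1.53e-04 to 1.000 and the log2 fold change from 0.64 to 0.85. All 6 genes from SAUR19 to SAUR24 had log2 fold changes above 0, from 0.45 to 0.75, beside 9697 of all 20060 tested genes above 0. These are close copies, so their values are not independent. SAUR20 was next to SAUR22, at 0.62 ± 0.17 (adjusted p = 0.082). The sum of the 6 genes was 1.34 to 1.68 times that of the single Col-0 libraries. As 5 of the 6 genes missed the threshold, and 1 library stands for hfr1 pil1, a difference of the cluster between genotypes is not shown by the test.

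In white light 0 of the 40 genes differed between hfr1 pil1 and Col-0 by edgeR, where 0.573% of all tested genes were higher in hfr1 pil1 and 1.89% lower. At an unadjusted p under 0.05 there were 4 of the 40, beside 2918 of all 20060 tested genes. DESeq2 gave 29 of the 40 an adjusted p and called 0 of them. The difference of the responses, hfr1 pil1 minus Col-0, was called for 0 of the 40 as well, where 1.98% of all tested genes had a positive and 1.79% a negative difference. At an unadjusted p under 0.05 there were 6 of the 40, beside 3273 of all 20060. DESeq2 gave an adjusted p for 3 of the 40 and called 0 of them. By the ratio of deposited values, SAUR22 alone had a difference of at least 2-fold in either direction. Its difference was positive, and 1.76% of all genes over the filter had a positive one of that size. The highest difference among the 40 was that of SAUR22 (1.63 ± 0.68, adjusted p = 0.246, edgeR) and the lowest that of SAUR13 (−1.71 ± 1.58, adjusted p = 0.678). With SEs of this size, a p above the threshold does not show that the responses were alike. Of the 40 genes, 21 had the larger log2 fold change in hfr1 pil1, beside 10077 of all 20060 tested genes. Among the 22 that rose in both genotypes, 13 did.

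The partners of SAUR proteins were read from lists chosen by name. Of the 9 PP2C-D phosphatases, all tested, 5 rose and 0 fell in hfr1 pil1, where 18.4% of all tested genes rose and 18.6% fell. In Col-0, 6 rose and 0 fell, where 23.0% of all rose and 25.3% fell. With DESeq2, 3 rose in hfr1 pil1 and 4 in Col-0, and with library totals as the scale 7 and 8 did. Without a filter, AT5G06750 was called lower in Col-0. AT5G02760 had 1135 normalized counts in hfr1 pil1 in low R:FR against 217 in white light, and 713 in Col-0 in low R:FR against 163 in white light (2.38 ± 0.13 in hfr1 pil1 and 2.15 ± 0.10 in Col-0). AT5G66080 had 401 in hfr1 pil1 in low R:FR against 73.9 in white light, and 311 in Col-0 in low R:FR against 89.1 in white light. These 2 had the largest changes of the list, each with log2 fold changes over 1 in both genotypes. AT5G02760 was also higher in hfr1 pil1 than in Col-0 in low R:FR (0.67 ± 0.10, adjusted p = 0.00285, edgeR).

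The plasma membrane H+-ATPases gave fewer calls. Of 11 genes 9 were tested. In hfr1 pil1 1 rose and 0 fell, and in Col-0 1 rose and 3 fell, where 18.4% of all tested genes rose and 18.6% fell in hfr1 pil1, and 23.0% rose and 25.3% fell in Col-0. AHA11 rose in both genotypes, at 1297 normalized counts in hfr1 pil1 in low R:FR against 866 in white light, and 1388 in Col-0 in low R:FR against 961 in white light. AHA1, AHA7 and AHA10 were not called in hfr1 pil1 and fell in Col-0, AHA1 by 0.22, AHA7 by 0.53 and AHA10 by 1.39 on the log2 scale. In white light AHA7 was called lower in hfr1 pil1 than in Col-0, at 165 against 290 normalized counts (−0.80 ± 0.14), where 1.89% of all tested genes were lower. AHA2, the most abundant pump gene, had 9333 in hfr1 pil1 in low R:FR against 9015 in white light, and 9594 in Col-0 in low R:FR against 9772 in white light, and was not called. With DESeq2 the calls of the 3 that fell are lost.

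Of the 32 other SAUR genes 14 were tested. In hfr1 pil1, 4 rose and 0 fell, where 18.4% of all tested genes rose and 18.6% fell. In Col-0, 6 rose and 2 fell, where 23.0% of all rose and 25.3% fell. The median log2 fold change of the 14 was 0.58 in hfr1 pil1 and 0.16 in Col-0, beside 1.46 and 1.72 for the 40 tested genes of the chosen loci. With DESeq2, SAUR57 alone rose in hfr1 pil1, and 4 rose and 1 fell in Col-0. SAUR57 had 145 normalized counts in hfr1 pil1 in low R:FR against 13.1 in white light, and 120 in Col-0 in low R:FR against 6.78 in white light. SAUR46 had 34.6 in hfr1 pil1 in low R:FR against 3.08 in white light, and 28.4 in Col-0 in low R:FR against 2.40 in white light. Both rose in both genotypes, though the hfr1 pil1 call of SAUR46 is lost with DESeq2, at log2 fold changes of 3.46 ± 0.32 and 3.44 ± 0.75 in hfr1 pil1, and 4.25 ± 0.27 and 3.81 ± 0.59 in Col-0.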

How the data were processed

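Total RNA from 4 samples was sequenced by the authors. The deposited values are a normalized signal in 4 columns, of which the Col-0 ones are means per the file headers. Their steps show them to be read counts divided by 1 size factor per library, so that the authors' size factors below are inferred from the values. The submitters' processing notes name Bowtie and TAIR10. The sources used here give no counting tool, normalization tool, read length or strandedness. Reads were recovered from the deposited values because hfr1 pil1 values are whole multiples of 1 step, and Col-0 values sums of whole multiples of 2 steps, within 0.01 reads. In all, 33507 of 33558 loci had reads in 6 libraries, and the Col-0 totals leave out 43 genes in low R:FR (13.1% of that column) and 38 in white light (15.2%). On simulated data 33517 loci were split, 0 of them wrongly. No SAUR gene was lost.

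Recovered reads of 20060 genes (51 more over the filter could not be tested) were fitted in 1 model of 4 groups by edgeR 4.0.16 (R 4.3.3), using the authors' size factors (0.723 to 1.63), 2 residual degrees of freedom and a biological coefficient of variation of 0.0526. The SE was taken from the size of the log2 fold change over the root of F. The 2 Col-0 libraries differed by more than sampling noise (chi-square per gene 2.76 in low R:FR and 2.46 in white light, where sampling alone gives 1). Over the 40 tested SAUR genes the SD of their log2 difference was 0.205 in low R:FR and 0.291 in white light. Ratios of deposited values counted as 2-fold after adding 10.8 normalized counts. Coordinates, exon lengths, coding identities and promoters come from RefSeq TAIR10.1, and the table itself has no coordinates. AT5G53590 was not analysed here, and AT5G01830, which has SAUR21 as a second name, was left out as no SAUR by length. A treatment of 1 h, also in the labels, was not analysed here.

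The SAUR loci and the lists of phosphatases, pumps and markers were chosen with earlier results of these data known. Values in every library were given for the genes with the highest mean and with the largest and smallest Col-0 ratio in each cluster, and for genes whose call differed between genotypes. Alternatives were TMM factors, library totals, DESeq2 1.42.0, other filters and pseudocounts, rescaled columns, fewer samples in the fit, and each Col-0 library left out.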

Additional observations from a re-analysis of the deposited data

Results flagged for a closer look

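SAUR78, one of the 32 other SAUR genes and known as an ethylene-related member of the family, was called in the difference of the responses. It had 358 normalized counts in hfr1 pil1 in low R:FR against 394 in white light, and 755 in Col-0 in low R:FR against 351 in white light. It was not called in hfr1 pil1 (−0.14 ± 0.13) and rose in Col-0 (1.10 ± 0.08). The difference of the responses was −1.24 on the log2 scale (adjusted p = 0.00143, edgeR's interaction contrast), and in low R:FR the gene was lower in the hfr1 pil1 library than in Col-0 (−1.08 ± 0.11, adjusted p = 1.71e-04). SAUR78 was picked out because this difference passed the test of the difference itself. Of the 14 other SAUR genes tested, 0 had a positive and 1 a negative difference called, where 1.98% of all tested genes had a positive and 1.79% a negative one. The call rests on 1 hfr1 pil1 library per light, with the spread taken from Col-0, and was not checked under the alternatives.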

How the results depend on the processing

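The 24 calls in hfr1 pil1 became 14 with a filter of 54.2 normalized counts, and 24 to 25 with 1 Col-0 library left out. The 32 calls in Col-0 (28 higher and 4 lower) became 15 with that filter of 54.2, which left 18 SAUR genes, and 21 by a 2-fold change of the deposited values. Leaving out 1 Col-0 library gave 29 to 33 calls there. The single call between genotypes in low R:FR became 0 with DESeq2 (which gave 18 of the 40 genes, SAUR22 among them, an adjusted p), 2 without a filter, 2 with only the groups compared and 0 by a 2-fold change, and 0 to 2 with 1 library left out. The second gene was SAUR20 in each case with 2. The difference of the responses gave 1 call without a filter (SAUR21) and 1 by a 2-fold change (SAUR22), against 0. DESeq2 lost 6 calls in hfr1 pil1 (SAUR7, SAUR36, SAUR32, SAUR31, SAUR1 and SAUR13) and 7 in Col-0 (SAUR41, SAUR71, SAUR8, SAUR32, SAUR4, SAUR14 and SAUR15), and the cause was not tested. No call of a SAUR gene changed direction under any alternative run. Without the filter, SAUR68 and SAUR10 were called higher in both genotypes.

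With columns rescaled to 1 nuclear total the median log2 ratio of all genes over the filter was 0.137 in hfr1 pil1 and 0.0914 in Col-0, against −0.01 and −0.02 as deposited. Of 16 log2 ratios of summed counts, 6 moved by more than the spread between Col-0 libraries under that scale and 7 under 1 total of all genes, all upward; those of the dispersed genes became 0.26 in hfr1 pil1 and 0.13 in Col-0, against 0.10 and 0.00. The genes at least 2-fold higher by size numbered 11 in hfr1 pil1 and 9 in Col-0 with 5 times the pseudocount, 22 and 26 with the pseudocount divided by 5, and 20 and 23 with rescaled columns, against 20 and 21. The hfr1 pil1 response could not be fitted with its own 2 libraries alone, and no paired analysis was possible because each group has 1 sample and the labels give no replicate numbers. Depth limits the genes under the filter, with at most 15 reads per library, and 1 library per light limits every statement on hfr1 pil1.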
